A study of Mus musculus with 40 samples.

Results

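WT multipotent progenitors (MPPs) were compared with WT haematopoietic stem cells (HSCs) among cells that had kept a histone label through a chase, the GFP-high cells. The comparison used 6 of the 40 RNA-seq libraries of the series, chosen by their labels: 3 of WT GFP-high MPPs and 3 of WT GFP-high HSCs. The series measured MPPs and HSCs of mouse bone marrow in WT mice and in mice labelled KO for Hira, a chaperone of the histone variant H3.3, as total cells and as GFP-high and GFP-low cells. The other 3 pairs of groups were read beside this comparison: labelled KO GFP-high MPPs and HSCs (3 libraries each), WT GFP-low MPPs and HSCs (3 each) and WT total MPPs and HSCs (4 each). The labels place the GFP cohort in mice with Mx1-Cre, a floxed Hira gene, Rosa26-M2rtTA and TetOP-H2B-GFP on C57BL/6, and do not state which of these alleles the WT mice carried. All of these mice, WT included, had received 2 doses of 20 µg poly(I:C), a synthetic inducer of interferon through which Mx1-Cre is activated. The label was switched on for 6 weeks with doxycycline (2 mg/ml, sweetened with sucrose at 10 mg/ml), and the chase lasted 17 days. Sorting took place 15 days past the final poly(I:C) dose. The total cells came from another cohort, sorted 1 week after the first dose, so they differ from the GFP-high cells in time and cohort as well as in gating. The surface markers of the HSC and MPP gates are not given in the sources used here.

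HSCs sit at the top of blood formation and can renew themselves for life, while MPPs have largely lost that capacity but still give rise to all blood lineages. HSCs are known for the surface receptor SLAMF1 (CD150) and for low levels of the cytokine receptor FLT3 and of CD34, and MPPs for the reverse. H2B-GFP is a fluorescent histone made only while doxycycline is given. Each division then dilutes it, so that a GFP-high MPP or HSC is one that divided little during the chase. A subset of HSCs is known to express genes of megakaryocytes, the cells that shed platelets, whereas MPPs begin to express genes of lymphoid and myeloid cells.

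The libraries held 16019153, 12164391 and 13711405 reads in MPPs 1, 2 and 3, and 13321354, 12544049 and 11230816 reads in HSCs 1, 2 and 3, as recovered from the steps of the deposited FPKM values (reads scaled to gene length and library size). The transcript of Rn45s, the precursor of ribosomal RNA, took between 36.1% and 42.7% of the reads in these 6 libraries. At 1 FPKM or more stood 10670 to 10680 genes in MPP libraries and 10721 to 10778 in HSC libraries. MPPs and HSCs came in separate tables that the authors had scaled separately, so the 6 columns were rescaled together, by factors between 0.999 and 1.011. Cell type and table still cannot be told apart. The labels do not name animals, so p-values measure the spread between these libraries. On a principal component analysis the first component (39.0% of the variance) had all 3 MPP libraries between 11.7 and 18.8 and all 3 HSC libraries between -21.3 and -12.0.

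The labels held for most of the marker genes listed for each cell type. Of 8 MPP markers that passed the filter on low values, 6 were higher in MPPs and 0 lower, and of 10 HSC markers 6 were lower in MPPs and 1 was higher. Flt3 (chr5:147330741-147400489 in GRCm38) stood at 33.4, 46.0 and 36.9 FPKM in MPPs, against 3.28, 4.52 and 4.05 FPKM in HSCs, 9.81-fold higher (log2 difference 3.00, SE 0.15, limma adjusted p = 7.92e-05). Slamf1 (chr1:171767131-171801184) stood at 0.139, 0.290 and 0.497 FPKM in MPPs, against 6.65, 7.47 and 7.39 FPKM in HSCs (log2 -2.65, SE 0.14, adjusted p = 7.92e-05). Neither gene's groups overlapped, and these 2 surface receptors split the libraries as their labels do. The sources do not say whether the cells were gated on them, and such a gate would favour this split in advance. All log2 differences are MPP minus HSC on log2(FPKM + 1), a scale that understates the change of genes at low levels, and a gene passed at an adjusted p under 0.05.

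Other markers did not follow the labels in the same way. Hlf, a transcription factor of HSCs, was higher in MPPs, at 42.2 ± 0.546 FPKM against 26.3 ± 4.33 FPKM in HSCs (SD, n = 3 each, log2 0.67, limma adjusted p = 0.0195, and at most 0.0726 without MPP 1, 2 or 3). Procr, the receptor EPCR, averaged 66.6 ± 2.86 FPKM in MPPs and 62.3 ± 8.69 FPKM in HSCs (limma adjusted p = 0.814), and Kit, the receptor for stem cell factor, 109 ± 13 and 111 ± 12.6 FPKM (adjusted p = 0.964). Cd48, a surface protein found on many MPPs, stood at 4.80, 6.41 and 7.58 FPKM in MPPs, against 8.34, 6.72 and 1.99 FPKM in HSCs, and its groups overlapped (adjusted p = 0.881). Mecom, a transcription factor of HSC self-renewal, averaged 5.06 ± 0.933 FPKM in MPPs and 7.56 ± 0.974 FPKM in HSCs and missed the threshold (adjusted p = 0.144). Ly6a, the antigen Sca-1 carried by both cell types, was higher in MPPs (284 ± 26.4 against 196 ± 22.5 FPKM, adjusted p = 0.0237), a call lost without HSC 1 or 3 or MPP 2 or 3 (adjusted p up to 0.0804). Hira was low in both, at 1.52 ± 0.338 FPKM in MPPs and 2.27 ± 0.818 FPKM in HSCs (adjusted p = 0.531).

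Across all genes, 368 of 10842 tested differed between MPPs and HSCs (3.39%), 170 higher in MPPs (1.57%) and 198 lower (1.83%). In all 368 the 3 MPP values and the 3 HSC values did not overlap, as was also so for 17.6% of all genes tested. The median log2 difference was 0.88 among those higher and -0.91 among those lower, against 0.01 over all tested genes. A difference of more than 1 on the log2 scale was seen in 64 of the higher and 78 of the lower genes. With the replicate number as a block, which the check of pairing allows, 586 genes passed (5.40%), 300 higher (2.77%) and 286 lower (2.64%). Without HSC 1, 2 or 3 the count was 222, 188 or 180, and without MPP 1, 2 or 3 it was 259, 230 or 210.

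**Figure D1:**
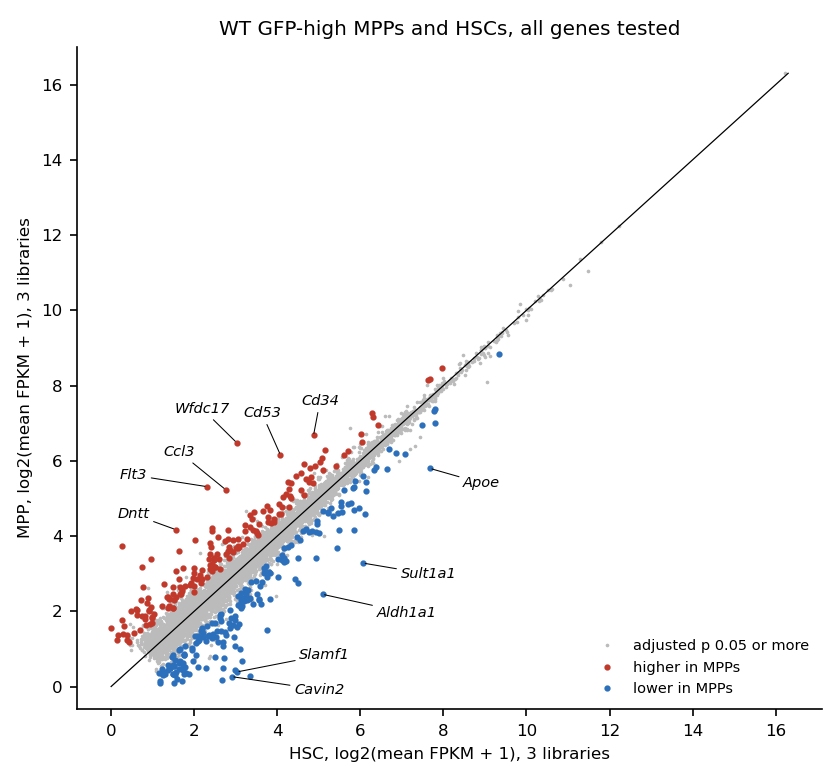
Mean level in MPPs (vertical axis) against mean level in HSCs (horizontal axis), both as log2(mean FPKM + 1) over 3 WT GFP-high libraries, for all 10842 genes tested. Red points are the 170 genes higher in MPPs, blue points the 198 lower, grey points the rest, and the line marks equal levels.

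Among well expressed genes (mean log2 of 3 or more), the 12 that rose most in MPPs were Wfdc17, Flt3, Ccl3, Cd53, Cd34, Ccl9, Rasa4, Shisa8, Kcnk12, BC035044, P2ry14 and Ctss. Wfdc17 (chr11:83704056-83706269), a small secreted protein with a WAP domain, stood at 52.3, 113 and 99.6 FPKM in MPPs, against 5.95, 9.11 and 6.32 FPKM in HSCs (log2 3.41, SE 0.27, limma adjusted p = 0.000401). The chemokine Ccl3 stood at 28.8, 46.6 and 34.5 FPKM in MPPs, against 4.25, 6.03 and 7.01 FPKM in HSCs (log2 2.47, adjusted p = 0.000432). Every MPP library was above every HSC library for both genes. Ccl9, another chemokine of the same cluster on chromosome 11, averaged 17.6 ± 4.60 FPKM in MPPs and 4.35 ± 1.20 FPKM in HSCs (log2 1.80, adjusted p = 0.00269). Cd53, a tetraspanin of leukocyte membranes, averaged 70.3 ± 15.3 FPKM in MPPs and 15.9 ± 5.94 FPKM in HSCs (log2 2.12, adjusted p = 0.00218).

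The other genes of this group were Cd34, Rasa4, Shisa8, Kcnk12, BC035044, P2ry14 and Ctss, with log2 differences between 1.32 and 1.80. Cd34 (chr1:194938821-194961292), a sialomucin of progenitors, stood at 89.1, 105 and 110 FPKM in MPPs, against 28.7, 26.0 and 30.2 FPKM in HSCs (log2 1.80, SE 0.11, limma adjusted p = 7.92e-05). P2ry14, a receptor for UDP-glucose, averaged 16.8 ± 2.15 FPKM in MPPs and 6.02 ± 0.618 FPKM in HSCs (adjusted p = 0.000992). Kcnk12, a potassium channel, averaged 13.2 ± 4.33 and 4.24 ± 0.997 FPKM (adjusted p = 0.00854). Calls were lost without 1 library for Rasa4, a Ras GTPase-activating protein (adjusted p up to 0.0783 without HSC 2 or 3 or MPP 2), for Shisa8 (up to 0.0618 without HSC 2 or MPP 3), for Ctss (up to 0.0682 without HSC 1 or 3 or MPP 2) and for BC035044 (up to 0.167 without HSC 2 or 3 or MPP 2 or 3, and 0.0569 with the replicate block).

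Among well expressed genes, Sult1a1, Aldh1a1 and Apoe had the 3 largest falls in MPPs. Sult1a1 (chr7:126672865-126690443), a sulfotransferase, stood at 5.75, 8.13 and 12.3 FPKM in MPPs, against 54.8, 61.1 and 82.4 FPKM in HSCs, 7.58-fold higher in HSCs (log2 -2.82, SE 0.24, limma adjusted p = 0.000484). Aldh1a1 (chr19:20492583-20643463), a retinaldehyde dehydrogenase long used to mark stem cells, stood at 4.57, 5.72 and 3.12 FPKM in MPPs, against 30.2, 43.8 and 25.2 FPKM in HSCs (log2 -2.63, adjusted p = 0.000529). Apoe (chr7:19696244-19701310), the apolipoprotein E, stood at 49.5, 51.2 and 63.2 FPKM in MPPs, against 213, 182 and 217 FPKM in HSCs (log2 -1.88, SE 0.11, adjusted p = 8.55e-05). All 3 genes were several times lower in every MPP library than in any HSC library.

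The remaining 9 genes of that rank were Mmrn1, Slfn2, Mt1, Selenom, Bex4, Tgm2, Kazald1, Art4 and Trim47, with log2 differences between -1.77 and -1.18. Tgm2, a transglutaminase that crosslinks proteins, averaged 23.1 ± 4.79 FPKM in MPPs and 67.6 ± 0.835 FPKM in HSCs (limma adjusted p = 0.000653). Selenom, a selenoprotein, averaged 6.21 ± 1.6 and 20.5 ± 1.51 FPKM (adjusted p = 0.00107), and Mt1, a metallothionein that binds zinc, 17.0 ± 2.35 and 56.2 ± 17.7 FPKM (adjusted p = 0.00553). Slfn2, a schlafen protein of immune quiescence, averaged 11.8 ± 2.50 FPKM in MPPs and 42.2 ± 15.5 FPKM in HSCs (adjusted p = 0.00944). Art4 lost its call without HSC 3 or MPP 3 (adjusted p up to 0.0615), and Trim47 without HSC 2 or 3 or MPP 3 (up to 0.0673).

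**Figure D2:**
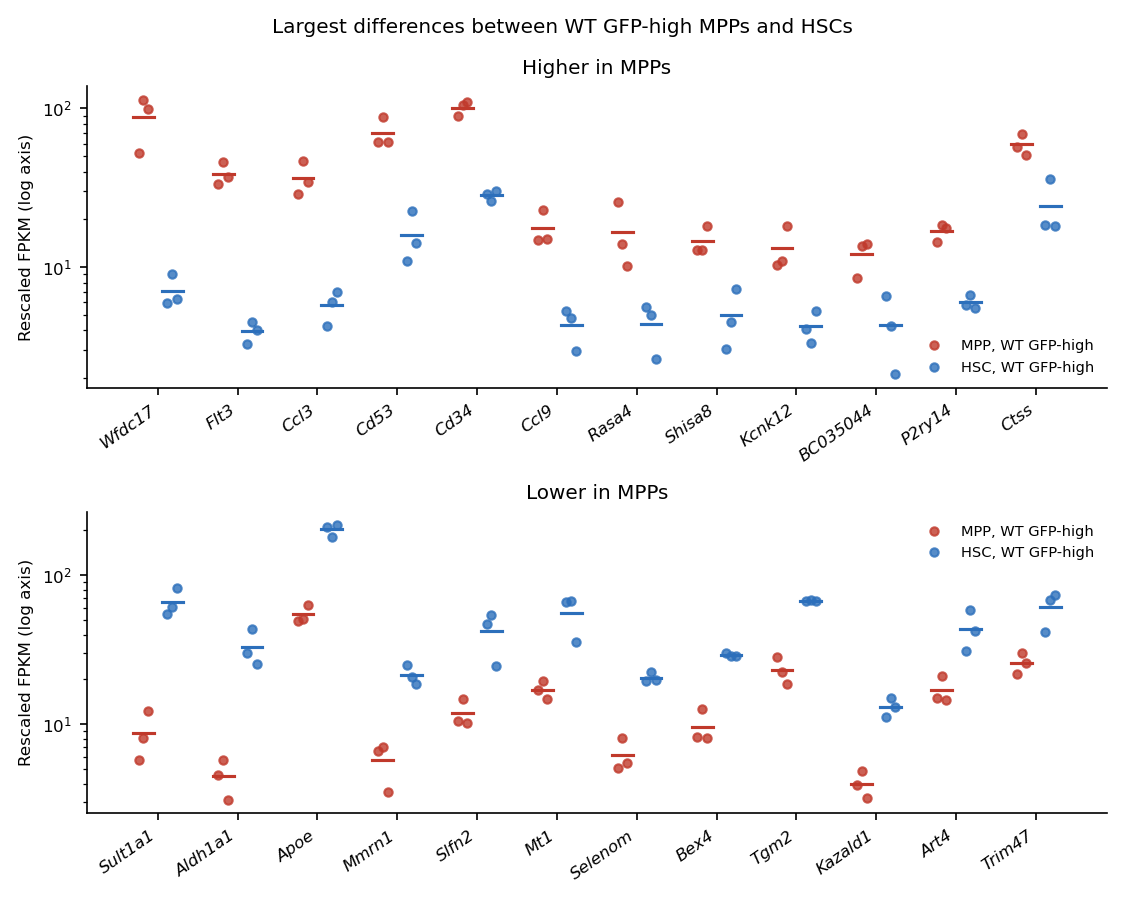
FPKM (log axis) of the 12 genes with the largest rise in MPPs (top) and the 12 with the largest fall (bottom) among well expressed genes. Points are single WT GFP-high libraries, 3 MPP (red, left) and 3 HSC (blue, right), and bars are means; no gene's groups overlap, which the choice of these genes required.

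Of 28 tested genes of MPPs and of lymphoid priming 14 passed, all higher in MPPs, and 27 were positive, with a median log2 difference of 0.68 against 0.01 over all genes. With the replicate block 20 passed, all higher, and without 1 library 9 (MPP 3) to 14 (MPP 1). Dntt, the terminal transferase that adds bases at antigen receptor joints, stood at 14.7, 19.8 and 16.6 FPKM in MPPs, against 4.15, 0.923 and 0.715 FPKM in HSCs (log2 2.80, SE 0.36, limma adjusted p = 0.00422). All MPP libraries were above HSC 1, itself well above HSC 2 and 3. Tespa1, a signalling protein of developing T cells, averaged 9.57 ± 1.16 FPKM in MPPs and 0.955 ± 0.575 FPKM in HSCs (log2 2.47, adjusted p = 0.000479), and Cd52, a small glycoprotein of lymphocytes, 41.8 ± 2.56 and 19.1 ± 0.159 FPKM (log2 1.09, adjusted p = 0.000479). Cd27, Satb1, Notch1 and Ikzf1, a receptor and regulators of lymphoid fate, passed with log2 differences of 0.71, 0.97, 0.84 and 0.63. Each of these 4 calls was lost without at least 1 library (adjusted p up to 0.0683 for Cd27 without HSC 2 or MPP 2 or 3, 0.0673 for Satb1 without any one of the HSC libraries, 0.0537 for Notch1 without HSC 3 or MPP 3, and 0.107 for Ikzf1 without any library but MPP 2). Il7r, the receptor for interleukin 7, was below 0.5 FPKM in all 6 libraries and was not tested.

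Of 29 tested platelet and megakaryocyte genes 15 passed, all lower in MPPs, 23 were negative and 6 positive, and the median was -0.65. With the replicate block 15 were lower and 1 higher, Plek, the platelet protein pleckstrin (limma adjusted p = 0.00313 with the block, and 0.126 without). Without 1 library between 9 (HSC 3) and 13 (any one of the MPP libraries) passed. Vwf, the von Willebrand factor that tethers platelets, stood at 0.449, 0.404 and 0.381 FPKM in MPPs, against 7.38, 4.60 and 4.27 FPKM in HSCs (log2 -2.15, SE 0.19, limma adjusted p = 0.000541). Cavin2 (chr1:51289126-51302960), a coat protein of caveolae also known from platelets, stood at 0.387, 0.186 and 0.0263 FPKM in MPPs, where the lowest library had 1 read, against 6.75, 6.98 and 5.75 FPKM in HSCs (log2 -2.65, adjusted p = 7.92e-05). Both genes were near 0 in every MPP library.

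Within the same list, Treml1, a receptor of platelet granules, averaged 1.26 ± 0.315 FPKM in MPPs and 5.43 ± 0.883 FPKM in HSCs (limma adjusted p = 0.00181), and Mmrn1, multimerin of platelet granules, 5.75 ± 1.94 and 21.4 ± 3.12 FPKM (adjusted p = 0.00304). The integrin chains Itga2b and Itgb3, which form the fibrinogen receptor, fell by 1.45 and 1.41 on the log2 scale, and Gp5 and Gp9, of the von Willebrand receptor, by 1.28 and 0.93. Pf4, the platelet factor 4 chemokine, did not pass (33.2 ± 2.89 FPKM in MPPs, 43.6 ± 13.6 FPKM in HSCs, adjusted p = 0.528). In bulk RNA, fewer cells with these transcripts and less of them per cell cannot be told apart.

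Of 32 HSC surface and receptor genes 15 were lower and 3 higher in MPPs (median -0.30, and 10 to 15 passing without 1 library, lowest without HSC 3). Of 42 other HSC-enriched genes 21 were lower and 2 higher (median -0.70, and 14 to 22 without 1 library, lowest without HSC 2), and of 33 HSC transcription factors 7 were lower and 2 higher (median -0.13, and 5 to 7 passing without 1 library: 5 without MPP 1, 6 without HSC 2 or 3 or MPP 2 or 3, and 7 without HSC 1). Several members stand in the megakaryocyte list too. Clec1a, a C-type lectin receptor, averaged 1.48 ± 0.276 FPKM in MPPs and 6.81 ± 1.06 FPKM in HSCs (log2 -1.65, limma adjusted p = 0.000653), and Tgfbr3, a coreceptor for TGF-beta, 1.47 ± 0.220 and 4.76 ± 0.228 FPKM (log2 -1.22, adjusted p = 0.00156). Nupr1, a stress-responsive nuclear protein, averaged 1.85 ± 0.508 FPKM in MPPs and 12.6 ± 2.49 FPKM in HSCs (log2 -2.25, adjusted p = 0.00037). Adgrl4, an adhesion G protein-coupled receptor, moved the other way, to 56.8 ± 3.54 FPKM in MPPs against 29.2 ± 3.97 FPKM in HSCs (log2 0.94, adjusted p = 0.00285).

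Among the transcription factors, Sox18, known from blood vessel development, stood at 0.202, 1.40 and 0.497 FPKM in MPPs, against 7.74, 3.92 and 5.0 FPKM in HSCs (log2 -1.97, limma adjusted p = 0.00625). Gfi1b, a repressor needed for platelets and red cells, averaged 25.0 ± 5.19 FPKM in MPPs and 56.3 ± 7.40 FPKM in HSCs (log2 -1.15, adjusted p = 0.0048). Its relative Gfi1, a repressor needed for granulocytes, averaged 7.93 ± 1.10 and 2.30 ± 0.737 FPKM (log2 1.45, adjusted p = 0.00285). The groups did not overlap for either relative, and the differences had opposite signs. Mllt3, a chromatin reader that maintains HSCs, was lower (log2 -0.93, adjusted p = 0.00672), and Hoxa9 was higher (26.4 ± 1.94 against 16.3 ± 0.694 FPKM, log2 0.66, adjusted p = 0.00792). Meis1, the partner of Hoxa9, averaged 24 ± 1.63 FPKM in MPPs and 26.6 ± 2.56 FPKM in HSCs (adjusted p = 0.702). Gata2, a factor of stem and progenitor cells, was lower (log2 -0.83, adjusted p = 0.0314) but lost its call without HSC 2 or 3 or any one of the MPP libraries (adjusted p up to 0.126).

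Of 26 tested cytokine receptors of progenitors 6 were higher and 3 lower in MPPs, 3 to 6 passing without 1 library (3 without HSC 3, MPP 1 or MPP 3). Besides Flt3, the receptor for G-CSF, Csf3r, stood at 16.2, 18.4 and 21.6 FPKM in MPPs, against 6.79, 8.31 and 10.0 FPKM in HSCs (log2 1.08, limma adjusted p = 0.00658). Il1r1, the receptor for interleukin 1, was higher (log2 1.04, adjusted p = 0.0222, and up to 0.0834 without HSC 2 or 3), and Tek, the angiopoietin receptor TIE2, was lower (0.963 ± 0.0982 against 2.83 ± 0.518 FPKM, log2 -0.96, adjusted p = 0.00896). Of 19 genes of niche adhesion and homing 4 were higher and 3 lower, with 4 passing without MPP 1 and 5 without any other library. Esam and Jam3, adhesion molecules shared with endothelium, were lower (log2 -0.87 and -0.85, adjusted p = 0.00497 and 0.00775).

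**Figure D3:**
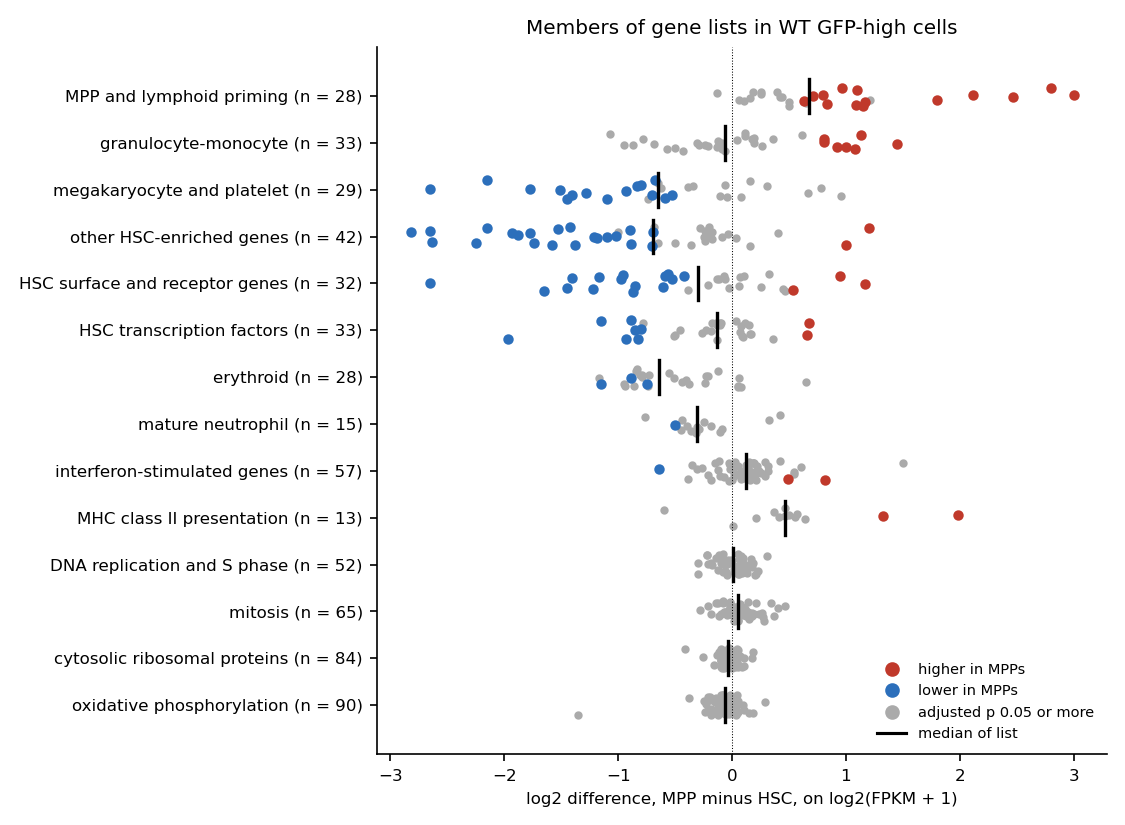
Log2 difference (MPP minus HSC) of each tested member of 14 gene lists in WT GFP-high cells. Red points rose in MPPs, blue points fell, grey points missed the threshold, and black bars are list medians, such as 0.68 for MPP and lymphoid priming and -0.65 for megakaryocyte and platelet genes.

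Granulocyte and monocyte genes did not move as one group. Of 33 tested, 7 were higher and 0 lower in MPPs, 16 were positive and 17 negative, and the median was -0.06. Hk3, a hexokinase of myeloid cells, averaged 34.0 ± 2.80 FPKM in MPPs and 17.4 ± 1.19 FPKM in HSCs (log2 0.93, limma adjusted p = 0.00218). Ncf4, a subunit of the phagocyte oxidase, averaged 27.8 ± 2.09 and 15.5 ± 1.68 FPKM (adjusted p = 0.00577), and Cebpa, the factor that starts granulocyte fate, 3.10 ± 0.819 and 0.868 ± 0.296 FPKM (log2 1.13, adjusted p = 0.0117). Mpo, the myeloperoxidase of primary granules, instead stood at 120, 53.7 and 63.5 FPKM in MPPs, against 210, 136 and 88.7 FPKM in HSCs, and its groups overlapped (log2 -0.87, adjusted p = 0.312). With the replicate block Mpo and Elane, the neutrophil elastase, passed as lower in MPPs (adjusted p = 0.0165 and 0.0156), 2 of 4 such members.

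RNA of mature neutrophils and red cells was present in all 6 libraries. The summed level of 22 listed neutrophil genes was 4335 to 5890 FPKM in MPP libraries and 5649 to 7611 FPKM in HSC libraries, ranges that overlap, most of it S100a8 and S100a9. Camp, a neutrophil granule peptide, stood at 438, 433 and 505 FPKM in MPPs, against 580, 624 and 748 FPKM in HSCs (log2 -0.50, limma adjusted p = 0.0335, and up to 0.117 without HSC 2 or 3 or MPP 1 or 2), the 1 member of 15 tested that passed. With the replicate block 4 passed, all lower. Of 28 erythroid genes 0 were higher and 3 lower (Gfi1b, Zfpm1 and Icam4, none of them a globin), with a median of -0.64. Zfpm1 lost its call without any library but MPP 3 (limma adjusted p up to 0.131) and Icam4 without HSC 1 or 3 or MPP 1 or 2 (up to 0.0837). With the block 12 were lower and 1 higher. Hba-a1, an alpha globin, stood at 136, 40.6 and 117 FPKM in MPPs, against 242, 89.0 and 184 FPKM in HSCs, which overlap (adjusted p = 0.526). For this gene each MPP library was below the HSC library of the same number. The summed erythroid level was 1198 to 1784 FPKM in MPPs and 1574 to 2550 FPKM in HSCs, which overlap as well. Whether this RNA came from the sorted cells was not tested, nor was its part in the granulocyte and erythroid values above.

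Markers of other cells were low. Defining genes of T cells (Cd3e), B cells (Pax5), macrophages (Adgre1), endothelium (Cdh5) and stroma (Col1a1) were at or below 0.344 FPKM in every library whose table lists them (Cd3e is listed in the MPP table alone). Of 6 tested B cell genes 0 passed in either direction, as did 0 of 11 macrophage genes and 0 of 7 mast cell, basophil and eosinophil genes. Over all genes tested 3.39% passed, so a count of 0 in lists this small says little about these cells. Of 5 T and NK cell genes Nkg7, a granule protein of cytotoxic cells that myeloid progenitors also express, was higher (66.1 ± 10.4 against 32.5 ± 5.72 FPKM, limma adjusted p = 0.00723). Sdc1, the syndecan known from plasma cells, was higher too (7.36 ± 3.84 against 1.94 ± 0.387 FPKM, adjusted p = 0.0224, and up to 0.080 without any one of the HSC libraries). The 2 members of 7 in the list of stroma and endothelium that passed, Tek and Tie1, are angiopoietin-pathway receptors that HSCs are also known to express, and both were lower in MPPs.

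Of 52 tested genes of DNA replication and S phase 0 passed in either direction (median 0.01, 26 positive and 26 negative). Of 65 mitosis genes 0 passed (median 0.05, 46 positive and 19 negative). Over all genes tested 3.39% passed. With the replicate block 0 passed in either list as well. Top2a, the topoisomerase of dividing cells, stood at 13.1, 12.4 and 10.1 FPKM in MPPs, against 11.3, 12.3 and 8.61 FPKM in HSCs (log2 0.14, limma adjusted p = 0.814). Mki67, the proliferation antigen, averaged 4.02 ± 0.813 FPKM in MPPs and 4.03 ± 0.718 FPKM in HSCs (adjusted p = 0.996). The groups overlapped for both. Among regulators of the G1 phase, Ccnd2, cyclin D2, averaged 42.9 ± 1.53 FPKM in MPPs and 57.6 ± 3.50 FPKM in HSCs (log2 -0.42, adjusted p = 0.0341), a call lost without any one library (adjusted p up to 0.130). Cdkn1c, the inhibitor p57 known from quiescent HSCs, stood at 2.09, 2.66 and 2.60 FPKM in MPPs, against 3.07, 6.57 and 7.81 FPKM in HSCs, and passed with the block alone (adjusted p = 0.122, and 0.0306 with the block). Ndn, an imprinted growth suppressor, was lower in MPPs (16.3 ± 2.73 against 26.2 ± 2.08 FPKM, adjusted p = 0.0257, and up to 0.104 without any library but MPP 2).

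None of 84 cytosolic ribosomal protein genes, 62 ribosome biogenesis genes and Myc targets, 22 tricarboxylic acid cycle genes or 90 oxidative phosphorylation genes passed in limma, and their medians lay between -0.06 and 0.01; with the replicate block 1 oxidative phosphorylation gene, Cox4i2, was lower. Of 34 genes of glycolysis and the hypoxia response Hk3 was higher and Ldha, lactate dehydrogenase A, was lower (159 ± 11.5 FPKM in MPPs, 220 ± 15.7 FPKM in HSCs, limma adjusted p = 0.0199, and up to 0.0779 without any library but MPP 3). Of 25 genes of the HIRA complex, H3.3 and histone chaperones 0 passed, with a median of -0.04. Of 28 polycomb and DNA methylation genes 0 passed (median 0.04). None passed among 23 genes of sterol synthesis, 30 of autophagy and lysosomes, 22 apoptosis regulators, 23 of MHC class I presentation or 4 replication-dependent histones. The share over all genes tested was 3.39%, so the shorter of these lists could hold few calls. With the replicate block Bid, a mediator of cell death, passed as higher (adjusted p = 0.0466) and Fas, a death receptor and also a p53 target, as lower (adjusted p = 0.0157), and of the MHC class I genes the peptide transporter Tap2 passed as higher (adjusted p = 0.0313). Of 32 genes of nucleotide synthesis 1 passed, Impdh1 of guanine nucleotide synthesis, which was higher in MPPs (32.6 ± 3.21 against 18.9 ± 2.35 FPKM, limma adjusted p = 0.00979).

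Of 57 tested interferon-stimulated genes, a group that poly(I:C) induces, 2 were higher (Ifit1bl1 and Ifi203) and 1 lower (Uba7) in MPPs. That was 5.26% of the list, against 3.39% of all genes tested. The median was 0.13, with 39 positive and 18 negative. With the replicate block 6 were higher and 1 lower, where 5.40% of all genes passed. Ifi203 lost its call without any one library (limma adjusted p up to 0.130) and Ifit1bl1 without HSC 1 or 3 (up to 0.140), and 1 gene of the list passed without HSC 1 or 3 or MPP 2 or 3. Uba7, the enzyme that activates ISG15, averaged 28.9 ± 2.36 FPKM in MPPs and 45.5 ± 1.48 FPKM in HSCs (log2 -0.64, limma adjusted p = 0.00775). Isg15 itself averaged 13.4 ± 3.29 and 13 ± 0.950 FPKM (adjusted p = 0.991). Of 13 genes of MHC class II presentation 2 were higher, H2-Ob and Ctss, and 6 with the block. H2-Ob, a subunit of the chaperone that restrains peptide loading, stood at 11.7, 9.47 and 12.5 FPKM in MPPs, against 1.75, 2.02 and 2.51 FPKM in HSCs (log2 1.98, adjusted p = 0.00031). Of 28 inflammatory and NF-kB genes 4 were higher, Ccl3, Il1r1, Il6ra and Rel, and 0 lower. Without HSC 1 the count was 2, and without any other library 1. Of 22 p53 targets Plk2, a polo-like kinase, was lower (0.101 ± 0.0295 against 2.25 ± 0.811 FPKM, adjusted p = 0.00391) and Btg2, an antiproliferative factor, was higher (6.38 ± 0.390 against 2.89 ± 0.625 FPKM, adjusted p = 0.00853).

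Promoters of some of these genes were read from RefSeq (GRCm38.p6), 250 bases before to 50 after the start, because genes that moved together can share sequence words. Of the 170 higher genes 134 had a promoter in the table, and of the 198 lower genes 147. Of 8 motifs counted, on both strands, GAGGAAGT, a word bound by the factor PU.1, was in 11.2% of promoters of higher genes, in 2.04% of those of lower genes, in 3.35% of those of all 8723 tested genes with a promoter and in 3.28% of all 27025 RefSeq promoters. Any of the hexamers AGATAA or TGATAA or AGATAG or TGATAG, bound by GATA factors, was in 24.6%, 27.2%, 18.1% and 30.2% of the same 4 sets. The first word contains AGGAAG, a core of ETS factors, which was in 49.3%, 32.7%, 33.9% and 35.1%. CGCG was in 47.8%, 48.3%, 71.9% and 38.4%, so promoters of both directions held it less often than those of all tested genes. Whether base content bears on the shares of the other words was not tested. These motifs were singled out after their shares were seen, and a match is not a bound site. Below, capitals mark GAGGAAGT and the GATA hexamers on either strand, in 2 genes that rose in MPPs (Cd53 and Ctss) and 3 that fell (Sult1a1, Slamf1 and Mmrn1).
Cd53, chr3:106790100-106790399, minus strand: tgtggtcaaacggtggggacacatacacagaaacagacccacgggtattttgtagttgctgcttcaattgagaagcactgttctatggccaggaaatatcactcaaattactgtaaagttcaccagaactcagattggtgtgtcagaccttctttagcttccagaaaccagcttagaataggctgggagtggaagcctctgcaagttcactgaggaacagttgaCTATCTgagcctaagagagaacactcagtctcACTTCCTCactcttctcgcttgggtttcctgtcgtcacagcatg
Ctss, chr3:95526536-95526835, plus strand: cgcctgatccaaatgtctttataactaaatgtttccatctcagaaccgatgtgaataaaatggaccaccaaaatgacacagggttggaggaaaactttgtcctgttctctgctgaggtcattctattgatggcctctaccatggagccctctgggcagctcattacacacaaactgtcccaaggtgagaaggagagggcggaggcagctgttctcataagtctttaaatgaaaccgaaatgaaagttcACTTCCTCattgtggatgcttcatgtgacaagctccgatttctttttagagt
Sult1a1, chr7:126676369-126676668, minus strand: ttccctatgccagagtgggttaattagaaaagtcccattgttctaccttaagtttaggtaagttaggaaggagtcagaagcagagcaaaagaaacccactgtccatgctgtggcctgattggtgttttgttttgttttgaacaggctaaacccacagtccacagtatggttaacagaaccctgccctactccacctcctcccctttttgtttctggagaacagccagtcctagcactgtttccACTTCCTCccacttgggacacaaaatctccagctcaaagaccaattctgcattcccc
Slamf1, chr1:171766882-171767181, plus strand: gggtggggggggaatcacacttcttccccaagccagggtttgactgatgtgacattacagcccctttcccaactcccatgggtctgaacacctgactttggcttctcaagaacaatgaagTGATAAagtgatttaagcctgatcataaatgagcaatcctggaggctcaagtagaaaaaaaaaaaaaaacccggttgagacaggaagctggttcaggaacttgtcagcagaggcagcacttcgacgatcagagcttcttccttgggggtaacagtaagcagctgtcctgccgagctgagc
Mmrn1, chr6:60944067-60944366, plus strand: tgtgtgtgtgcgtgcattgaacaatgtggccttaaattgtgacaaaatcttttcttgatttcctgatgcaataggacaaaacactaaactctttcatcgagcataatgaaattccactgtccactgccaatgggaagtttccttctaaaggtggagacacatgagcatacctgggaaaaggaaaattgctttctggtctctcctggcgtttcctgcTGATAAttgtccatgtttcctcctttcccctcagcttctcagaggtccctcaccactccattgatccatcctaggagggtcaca

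Sult1a1, which fell, holds the same word close to the start read here as Cd53 and Ctss, which rose. That start lies inside the span of Sult1a1 given above, away from its upstream end (chr7:126690443 on the minus strand). For the other genes shown the window covers the upstream end of the gene. GAGGAAGT begins 2 bases before the start in Ctss, 7 before in Sult1a1 and 6 after in Cd53, each time on the strand opposite to the gene. The hexamer of Slamf1 begins 130 bases before its start and that of Mmrn1 34 bases before, and Cd53 holds one too, 26 bases before. These 5 genes were chosen as examples, so they cannot show whether a word goes with the direction of a difference. The shares over all promoters of higher and lower genes are those given above.

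The 368 genes were then read in libraries that the comparison had not used. In labelled KO GFP-high cells, 106 of 10816 genes passed between MPPs and HSCs (0.980%), 41 higher (0.379%) and 65 lower (0.601%). There were 198 with the replicate block (1.83%), and 12, 21 or 20 without labelled KO HSC 1, 2 or 3, against 60, 47 or 95 without MPP 1, 2 or 3. Of the 351 genes with a value there, 342 had the same sign (97.4%, against 60.6% of genes that had not passed), and 89 passed in the same direction and 0 in the opposite one. These 89 were 25.4% of the 351 and 84.0% of the 106. Slamf1 had a log2 difference of -2.92, Flt3 of 2.46, Cd34 of 1.81 and Vwf of -2.05, and all 4 passed there. Dntt (2.38, limma adjusted p = 0.031) and Sult1a1 (-2.82, adjusted p = 0.0443) passed as well, while Mt1 (-0.90, adjusted p = 0.464) and Csf3r (0.35, adjusted p = 0.464) did not. The list medians were 0.58 for MPP and lymphoid priming (8 higher, 0 lower of 28) and -0.63 for megakaryocyte genes (0 higher, 8 lower of 28). Granulocyte and monocyte genes had a median of 0.57 (29 of 33 positive, 2 passing as higher), against -0.06 in WT. Mature neutrophil genes had 0.72 (15 of 15 positive, 0 passing), against -0.31 in WT. S100a8 and S100a9 took 0.881% of reads in labelled KO MPP 3, against 0.120% and 0.207% in MPP 1 and 2. These differences from WT were not tested.

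In WT GFP-low cells, which share replicate numbers with the GFP-high ones and for which the labels do not say whether they share animals, 507 of 10665 genes passed (4.75%). Of 337 genes with a value, 332 had the same sign (98.5%, against 63.7% of the rest), and 250 passed in the same direction, 74.2% of the 337 and 49.3% of the 507. Camp was the 1 that passed in the opposite direction, at a log2 difference of 0.90 there (limma adjusted p = 0.0229). The test of the difference itself, MPP minus HSC in GFP-high less the same in GFP-low, called 0 of 11180 genes in limma (0%), 440 at an unadjusted p under 0.05, and 0 with voom. Over the 368 genes the median size of that difference was 0.20 on the log2 scale and the median of its 95% interval reached 0.47 to either side. Without WT GFP-low MPP 3, 12 genes passed, all with a lower MPP minus HSC difference in GFP-high cells, among them Camp (adjusted p = 0.000955, and 0.385 with that library) and S100a8 (0.0151, and 0.498).

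**Figure D4:**
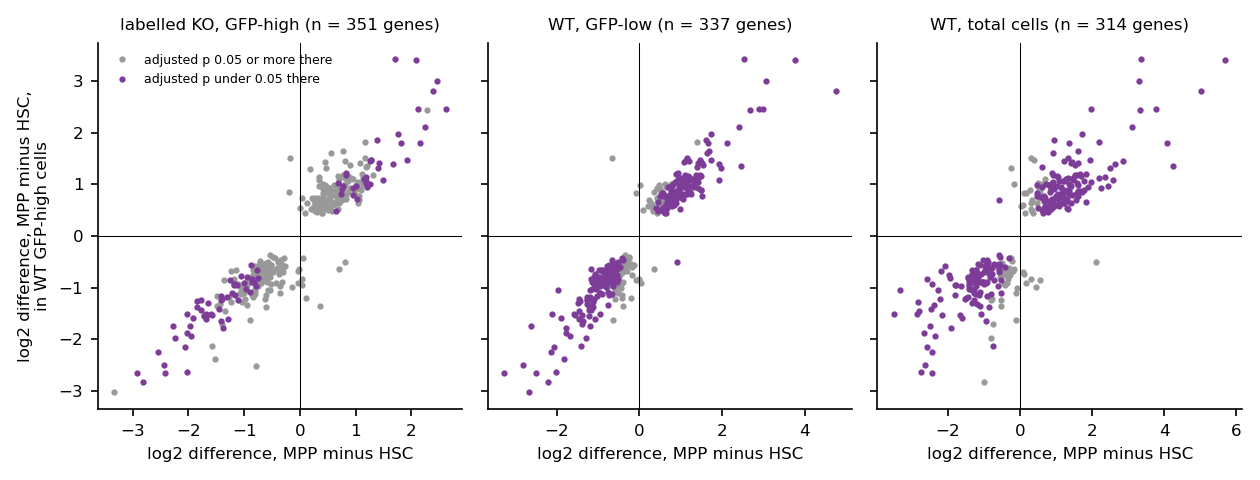
Log2 difference (MPP minus HSC) in WT GFP-high cells (vertical axis) against that in labelled KO GFP-high, WT GFP-low and WT total cells (horizontal axes) for the genes among the 368 that have a value there (351, 337 and 314). Purple points passed in the other libraries as well, and most points lie in the 2 quadrants of equal sign.

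In WT total cells, 2099 of 14381 genes passed (14.6%), with 4 libraries a group and 18859705 to 33468963 reads a library. Of 314 genes with a value, 304 had the same sign (96.8%, against 61.6% of the rest), and 253 passed in the same direction and 1 in the opposite, 80.6% of the 314 and 12.1% of the 2099. Genes of division differed there: of 62 mitosis genes 55 were lower and 0 higher in MPPs (median -1.08), and of 51 replication genes 31 were lower and 0 higher (median -0.59). Top2a had a log2 difference of -0.96 in total cells (limma adjusted p = 0.000767), -0.16 in GFP-low cells (adjusted p = 0.731) and 0.14 in GFP-high cells. Megakaryocyte genes had a median of -1.83 in total cells, with 24 of 28 lower, against -0.75 in GFP-low and -0.65 in GFP-high cells. Pf4 fell by 6.25 in total cells and by 1.93 in GFP-low cells (adjusted p = 8.17e-08 and 0.00223), and had a log2 difference of -0.34 in GFP-high cells, where it did not pass. Granulocyte and monocyte genes had medians of 1.18 in total (22 of 33 higher), 0.39 in GFP-low (12 higher) and -0.06 in WT GFP-high cells. In labelled KO GFP-high cells their median was 0.57 (2 of 33 higher). Differences between total and GFP-high cells were not tested, since cohort, time after poly(I:C), gate and read depth cannot be told apart.

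**Figure D5:**
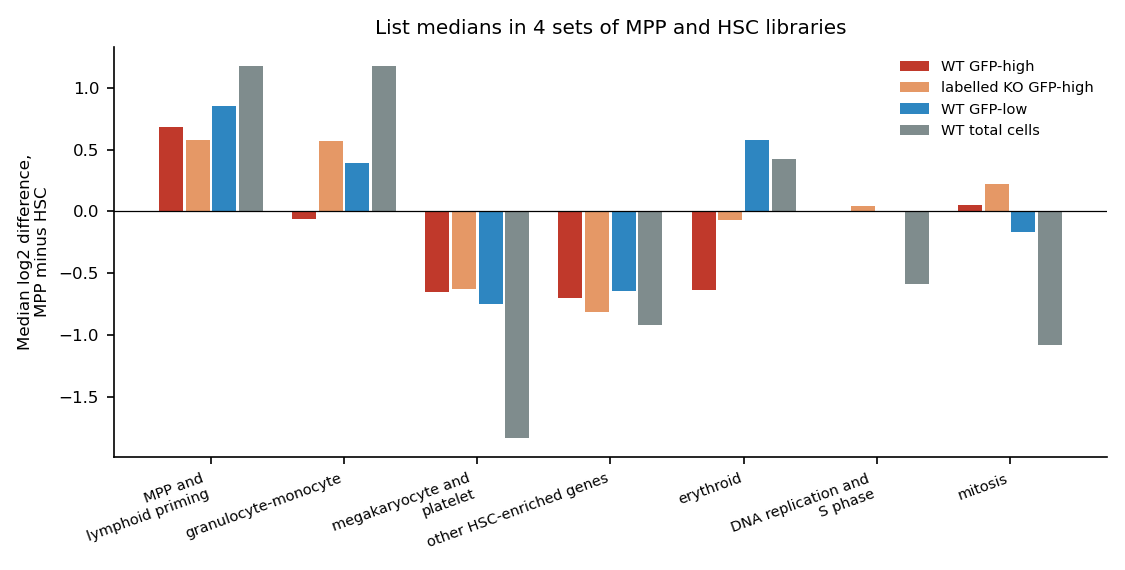
Median log2 difference (MPP minus HSC) of 7 gene lists in WT GFP-high, labelled KO GFP-high, WT GFP-low and WT total cells. The medians of MPP and lymphoid priming are positive and those of megakaryocyte and HSC-enriched genes negative in all 4 sets, while mitosis stands at 0.05, 0.22, -0.17 and -1.08.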

How the data were processed

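The deposited tables hold FPKM values computed by the authors, per the labels and the file headers, from polyA RNA amplified by SMART-Seq2 with Nextera XT libraries; the submitters' processing notes name STAR, DESeq2, HOMER and mm10 without role or version. All of the columns in the tables belong to samples of the series. MPP and HSC tables were joined by gene ID (15755 genes listed in both), and the 6 columns were divided by median-of-ratios factors. Genes with 1 FPKM or more in at least 3 columns were tested on log2(FPKM + 1) with limma 3.58.1 (R 4.3.3, intensity trend), with Benjamini-Hochberg adjustment over all 10842. Values per library and SDs are of rescaled FPKM. Whole reads were recovered for 100% of listed genes and used for depth and voom. No replicates agreed within sampling noise. Same-numbered MPP and HSC libraries deviated together (r = 0.258, 0.244 and 0.202, and 0.156, 0.319 and 0.263 in labelled KO). This is a hint that the numbers pair them, which the labels do not state. The main fit did not use the numbers, and the fit with the replicate block did. Strand is not stated, so antisense, overlapping and closely related genes are uncertain. Named genes were the up to 12 per direction with the largest difference among those passing, not overlapping and at a mean log2 of 3 or more, up to 4 passing per list, and fixed markers; others serve as list examples. Genes with placeholder names were counted, not named. The members and lists were chosen with earlier results of these data known. Python 3.11.15, pandas 2.3.3 and matplotlib 3.10.9 were used. The model was tested on simulated data. Some genes that the rule names are not reported here.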

Additional observations from a re-analysis of the deposited data

How the results depend on the processing

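Of the 368 genes, all that an alternative could test kept their direction. Leaving out 1 library could hardly have reversed any of them, as their MPP and HSC values did not overlap. Counts within 1.5 times of 368 were given by other pseudocounts, no filter, deposited or total scaling, absent genes as 0, voom, no trend, quality weights and fits with 12 libraries. A mean of 5 FPKM or more gave 209 (109 higher, 100 lower) and the replicate block 586. Leaving out 1 library gave 180 to 259. For labelled KO GFP-high cells the 106 became 33 without a filter, 52 at a mean of 5 FPKM, 180 with quality weights, 198 with the block, and 12 to 95 without 1 library. The test of GFP-high less GFP-low (0 genes) gave 0 to 12 without 1 library and 14 with the block, 2 higher and 12 lower, among the lower ones the red-cell genes Alas2, Hba-a1 and Slc4a1 and among the higher ones Pf4. Over those 4 groups same-numbered libraries had r between 0.031 and 0.346, so pairing is a hint there too. The cause of these shifts was not tested. Of 111 genes named or listed that passed, 73 passed under every alternative that kept all 6 libraries and 68 without each library in turn. Their sign changed in 0, and groups without overlap left little room for that. Among genes that had not passed, the log2 difference of Cd48 ranged between -0.25 (without HSC 3) and 0.58 (without HSC 1), that of Ear1 between -0.32 (without HSC 3) and 1.82 (without HSC 1), that of Kit between -0.12 (without HSC 1) and 0.071 (without MPP 1, and 0.04 without HSC 3), and that of Procr between -0.0022 (without HSC 1) and 0.20 (without HSC 3). Depth limits genes at low levels: the lowest library had under 10 reads in 12 of the higher and 30 of the lower genes.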

Other observations

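Some large differences lay in genes at low levels, outside the rule for named genes. Those below were chosen after their values were seen. Wfdc18, a neighbour of Wfdc17 in the WAP domain family, stood at 7.26, 13.2 and 16.2 FPKM in MPPs, against 0, 0.128 and 0.448 FPKM in HSCs (log2 3.42, limma adjusted p = 0.00037). Gkn3, a gastrokine, stood at 0.153, 0.189 and 0.282 FPKM in MPPs, against 6.49, 13.2 and 7.98 FPKM in HSCs (log2 -3.03, adjusted p = 0.00031). Clu, the secreted chaperone clusterin, stood at 0.229, 0.118 and 0.0234 FPKM in MPPs, against 6.07, 4.88 and 5.08 FPKM in HSCs (log2 -2.50, adjusted p = 7.92e-05). Il4, the cytokine interleukin 4, stood at 1.07, 1.32 and 0.590 FPKM in MPPs, against 7.57, 7.60 and 7.64 FPKM in HSCs (log2 -2.13, adjusted p = 0.00031), and at a log2 difference of -1.41 in GFP-low cells (adjusted p = 0.00107). No MPP value of these 4 genes overlapped the HSC values. Cldn5, a tight junction protein of endothelium, averaged 0.362 ± 0.228 FPKM in MPPs and 6.88 ± 1.88 FPKM in HSCs (SD, n = 3 each, log2 -2.52, adjusted p = 0.000432), and its log2 difference in labelled KO cells was -0.79 (adjusted p = 0.877).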
